A study of Homo sapiens with 6 samples.

Results

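The loops described here are those of human chromosome 18, a chromosome with few genes for its length. They are all the loops of the deposited list whose anchors both lie on chromosome 18. There were 1066 of them, or 2.28% of the 46849 loops of the whole list. The chromosome chosen for comparison was 19, the densest in genes, with 1484 loops. It is somewhat shorter, with 58.75 Mb from first to last anchor against 77.61 Mb on chromosome 18. The cells were HAP1, an adherent line with a near-haploid genome that descends from KBM-7 leukaemia cells, wild type in these libraries. Per the labels, diploid HAP1 cells were sorted by a Hoechst DNA stain and crosslinked with formaldehyde and then DSG. Contacts were measured by Micro-C, which maps contacts as Hi-C does but digests the chromatin with micrococcal nuclease, and so resolves single nucleosomes. The 6 replicates form 1 group, and the list pools them, so both chromosomes were read in the same libraries of the same line.

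A chromatin loop is a pair of distant sites, the anchors, that touch more often than their surroundings do. Many loops form when the cohesin complex extrudes a loop of chromatin until it meets CTCF bound at the anchors, and others join promoters with enhancers. Gene-poor chromosome 18 is known to lie near the edge of the nucleus in many human cells, and gene-dense chromosome 19 near its centre. The RefSeq table of GRCh38.p14 lists 270 protein-coding genes on chromosome 18 and 1451 on chromosome 19. Their median lengths are 51.3 kb on chromosome 18 and 14.3 kb on chromosome 19. Coordinates below are hg19, counted from 1, and which genes lie at an anchor was not analysed here, since the annotation at hand is of another build.

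All values come from 1 pooled list without replicates, so differences have no test and no p-value. Intervals are exact 95% binomial or Poisson intervals. They cover counting error only and are too narrow where loops cluster.

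Chromosome 18 carried few loops for its length, but more per gene than chromosome 19. From its first to its last anchor (260001 to 77870000) it held 13.7 loops per Mb (interval 12.9 to 14.6). Chromosome 19 held 25.3 per Mb (interval 24.0 to 26.6), so the density of chromosome 18 was 0.544 times that of 19 (interval 0.502 to 0.589). Among the 23 chromosomes of the list, chromosome 18 ranked 19 by density and chromosome 19 ranked 1. Per protein-coding gene the order was the other way: 3.95 loops on chromosome 18 and 1.02 on chromosome 19. Chromosome 19 had 5.37 times as many of these genes, so this order mostly restates gene number. The loops per gene of other chromosomes were not compared. The contact depth of the chromosomes, meaning the expected contacts of a 5 kb loop relative to all such loops of like span, was 0.923 times the list's median on chromosome 18 and 0.866 times on 19. The part of depth in the densities was not tested.

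Against chromosome 19, the shortage of loops was one of loops under 500 kb. Chromosome 18 had 372 loops under 100 kb, against 640 on chromosome 19, a density ratio of 0.440 (interval 0.386 to 0.501). At 100 to 200 kb it had 234 against 320 (ratio 0.554, interval 0.466 to 0.657), and at 200 to 500 kb it had 275 against 405 (ratio 0.514, interval 0.439 to 0.601). From 500 kb to 1 Mb the densities were alike, with 141 loops on chromosome 18 and 103 on 19 (ratio 1.04, interval 0.798 to 1.35). Above that the order turned: 44 loops of 1 Mb or more lay on chromosome 18 and 16 on chromosome 19, a density ratio of 2.08 (interval 1.15 to 3.95). These were 4.13% of the loops on chromosome 18, 1.08% on chromosome 19 and 3.83% of the whole list. By this share chromosome 18 ranked 8 and chromosome 19 ranked 23 of 23, so chromosome 18 lay near the list and chromosome 19 apart. Loops under 100 kb alone made up 52.9% of the gap of 11.5 loops per Mb between the chromosomes. Those of 100 to 200 kb made up 21.1%, those of 200 to 500 kb 29.1% and those of 500 kb or more -3.11%.

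**Figure D1:**
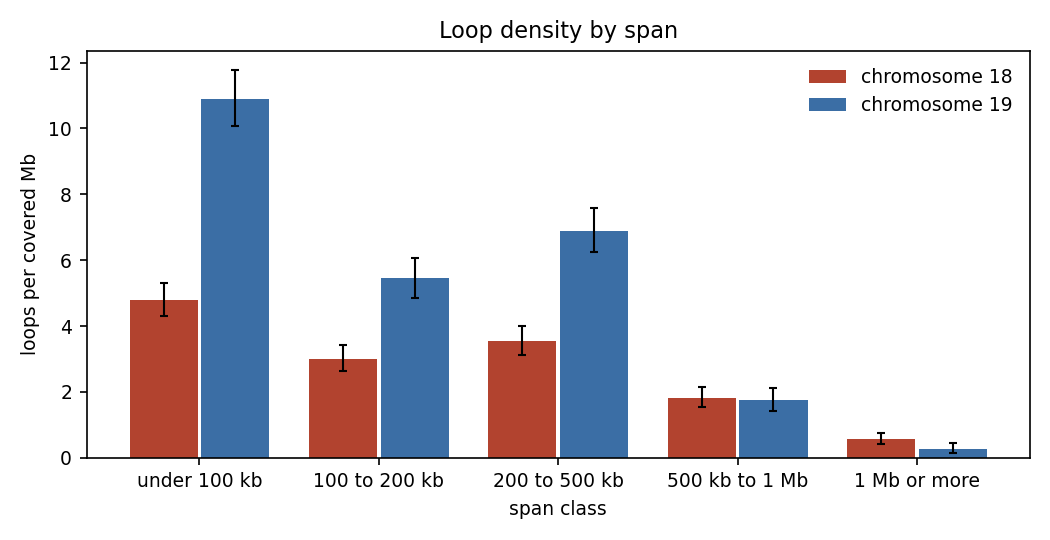
Loops per covered Mb (vertical axis) in 5 classes of span (horizontal axis) on chromosome 18 (red) and chromosome 19 (blue), with exact Poisson 95% intervals. The bars of chromosome 18 are lower in the 3 shorter classes, alike at 500 kb to 1 Mb (141 and 103 loops) and higher at 1 Mb or more (44 and 16 loops).

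The median span followed from this: 160 kb on chromosome 18 (interval 150 to 175 kb, quartiles 75 and 370 kb) and 120 kb on chromosome 19 (interval 110 to 135 kb, quartiles 60 and 275 kb). The median of the whole list was also 160 kb, and chromosome 18 ranked 9 of 23 by span where 19 ranked 23. Loops of 500 kb or more were 17.4% of those on chromosome 18, 8.02% of those on chromosome 19 and 16.1% of the whole list. In span, chromosome 18 therefore lay close to the list as a whole, and chromosome 19 at its short end.

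Loops on chromosome 18 were weaker than those of like span on chromosome 19, mainly the short ones. Strength is the observed contact count of a loop over the count expected from the ring (donut) of pixels around it. Its median was 3.57 on chromosome 18 (interval 3.39 to 3.69) and 4.04 on chromosome 19 (interval 3.90 to 4.15). Each loop of chromosome 18 was then set against the median of chromosome 19 loops with the same anchor width and similar span. Of the 1066 loops, 342 (32.1%, interval 29.3 to 35.0%) were the stronger, with a median difference of -0.22 on the log2 scale, or 0.860-fold. The medians of chromosome 19 were taken as fixed in this interval.

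The share changed with span. Under 100 kb 23.7% of chromosome 18 loops were above the chromosome 19 median (interval 19.4 to 28.3%), at 100 to 200 kb 27.8% (22.1 to 34.0%) and at 200 to 500 kb 37.5% (31.7 to 43.5%). From 500 kb to 1 Mb it was 50.4% (41.8 to 58.9%). For loops of 1 Mb or more it was 34.1% (20.5 to 49.9%), where chromosome 19 gives only 16 loops to compare with. Among loops with 5 kb anchors the median strength under 100 kb was 2.62 on chromosome 18 and 3.20 on chromosome 19. At 500 kb to 1 Mb it was 6.70 on chromosome 18 and 6.36 on chromosome 19, with overlapping intervals (6.09 to 7.11 and 6.03 to 7.72).

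**Figure D2:**
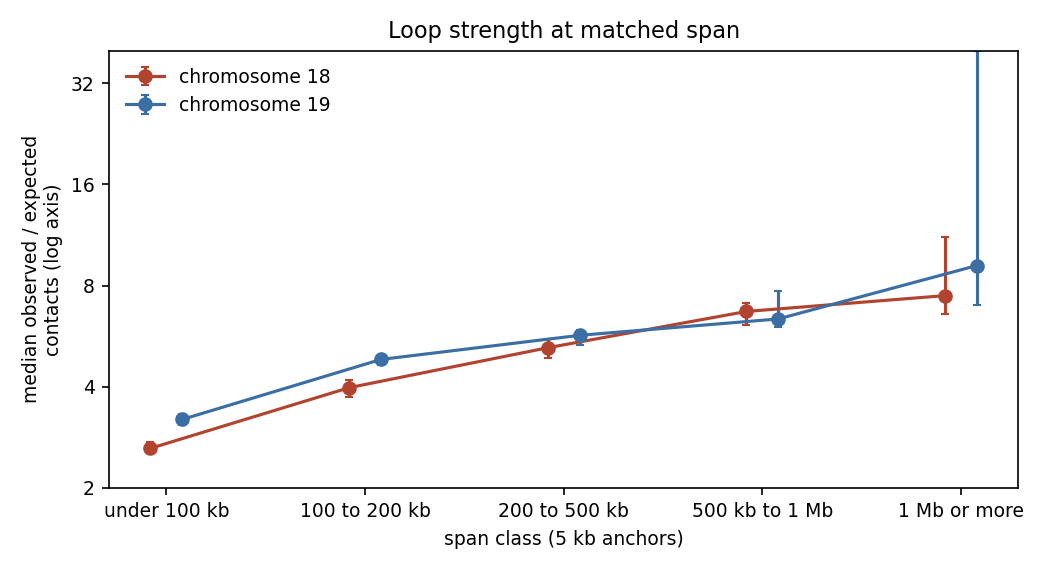
Median ratio of observed to expected contacts (vertical axis, log scale) by span class (horizontal axis) for loops with 5 kb anchors on chromosome 18 (red) and 19 (blue). Bars are exact 95% intervals of the median; the upper end for the 10 loops of chromosome 19 at 1 Mb or more, 2008, runs off the axis. The medians stand apart under 200 kb and the intervals overlap from 200 kb on.

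Which side of the ratio differed also depended on span. Under 100 kb the expected contacts were alike (0.967-fold, log2 interval -0.13 to 0.01), and the observed contacts of chromosome 18 loops were 0.740-fold those of chromosome 19 (log2 interval -0.55 to -0.31). At 200 to 500 kb the observed contacts were alike (1.07-fold, log2 interval -0.04 to 0.22), and the expected ones were 1.26-fold higher on chromosome 18 (log2 interval 0.22 to 0.39). At 500 kb to 1 Mb both were higher on chromosome 18, by 1.20-fold for observed and 1.27-fold for expected contacts. The list holds only loops that passed the caller's limits, and what this selection adds to the difference was not tested.

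Against all other chromosomes in place of 19, chromosome 18 was ordinary in strength: 48.9% of its loops lay above the median of like span (interval 45.8 to 51.9%). Computed the same way, chromosome 19 had 70.4% (interval 68.0 to 72.7%), which ranked 1 of 23, and chromosome 18 ranked 13. The single class of chromosome 18 whose interval excluded 50% was 500 kb to 1 Mb, where 63.1% of 141 loops lay above the others' median (interval 54.6 to 71.1%). Its observed contacts there were 0.947-fold those of the other chromosomes and the expected ones 0.922-fold.

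Single loops rested on few contacts. The observed count had a median of 28 contacts on chromosome 18 (quartiles 20 and 42, range 9 to 246) and 33 on chromosome 19 (quartiles 22 and 52.3, range 8 to 317). All 4 q-values of the caller were at or below 0.01 for 49.7% of chromosome 18 loops (interval 46.7 to 52.8%), 66.7% of chromosome 19 loops (64.2 to 69.1%) and 54.7% of loops on all chromosomes but 18. Loops of a single significant pixel were 8.16% on chromosome 18 (6.59 to 9.97%) and 15.1% on chromosome 19 (13.3 to 17.0%).

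The centromere lies in the stretch that splits the loops of chromosome 18 into 2 arms. The longest stretch without an anchor ran from 14090001 to 18590000 (4.50 Mb), and 0 loops crossed it. The short arm held 199 loops from 260001 to 14090000 and the long arm 867 from 18590001 to 77870000. Their densities were alike, 14.4 per Mb on the short arm and 14.6 on the long arm, a ratio of 0.984 (interval 0.839 to 1.15). The short arm holds the second longest empty stretch, 5635001 to 8360000 (2.73 Mb), also crossed by 0 loops. With stretches of 1 Mb or more without an anchor taken out of the lengths, an alternative chosen after seeing the data, the ratio was 1.20 (interval 1.02 to 1.40). The stretches taken out were chosen for having no anchor. Contact depth was 0.994 times the list's median on the short arm (log2 interval -0.11 to 0.10) and 0.908 times on the long arm (log2 interval -0.19 to -0.09), and its part in the densities was not tested.

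Spans differed little between the arms, with medians of 150 kb on the short arm (interval 115 to 205 kb) and 165 kb on the long arm (150 to 180 kb). Loops of 500 kb or more were 17.1% of the short arm (12.1 to 23.0%) and 17.4% of the long arm (14.9 to 20.1%). Strength was 3.77 on the short arm (interval 3.38 to 4.11) and 3.49 on the long arm (3.36 to 3.64). At like span, 56.3% of short arm loops were above the long arm's median, with an interval (49.1 to 63.3%) that takes in 50%.

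Along the long arm the sections beyond 60 Mb held fewer loops, though not evenly up to the end. By loop midpoint, the sections of 10 Mb between 20 and 60 Mb held 161, 135, 158 and 175 loops. From 60 to 70 Mb there were 129 (Poisson interval 108 to 153), and beyond 70 Mb, a shorter section that ends with the last anchor, there were 77 (60.8 to 96.2). The interval for 60 to 70 Mb takes in the count of 135 at 30 to 40 Mb. Windows of 1 Mb from 65 to 73 Mb held 4 to 12 merged anchors each. Those at 74, 75, 76 and 77 Mb held 27, 3, 14 and 20. Of the merged anchors beyond 70 Mb 3.16% held 5 or more loops, against 8.33% at 50 to 60 Mb. Contact depth also differed: it was 0.949 times the list's median at 50 to 60 Mb, 0.807 at 60 to 70 Mb and 0.745 beyond, so fewer loops and lower depth cannot be told apart there. The section at 40 to 50 Mb had the longest loops, with a median of 213 kb (interval 165 to 255 kb) and 25.9% at 500 kb or more (19.3 to 33.5%). The sections on either side had medians of 140 kb (100 to 170 kb, at 30 to 40 Mb) and 170 kb (140 to 225 kb, at 50 to 60 Mb).

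On the scale of 1 Mb windows, chromosome 18 had a median of 14 merged anchors (quartiles 9 and 20) and chromosome 19 one of 25.5 (quartiles 18.8 and 32). A merged anchor joins all anchors that overlap by at least 1 bp. Of 78 windows on chromosome 18, 6 held none, 23 held fewer than 10 and 3 held 30 or more. Of 60 windows on chromosome 19, 2 held none, 9 fewer than 10 and 20 held 30 or more. The fullest window was 3000001 to 4000000, with 32 anchors, 77 loop ends and 5 of the anchors with 5 or more loops. It was followed by 60000001 to 61000000 and 29000001 to 30000000 (30 anchors each), 74000001 to 75000000 (27) and 46000001 to 47000000 (25). The window at 74 Mb stood alone: that at 73 Mb held 4 anchors and that at 75 Mb 3. Windows with more anchors also had a higher contact depth (Spearman's rho 0.45 over 66 windows, which share the libraries), and the 32-anchor window had the highest depth of these, 0.37 on the log2 scale.

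**Figure D3:**
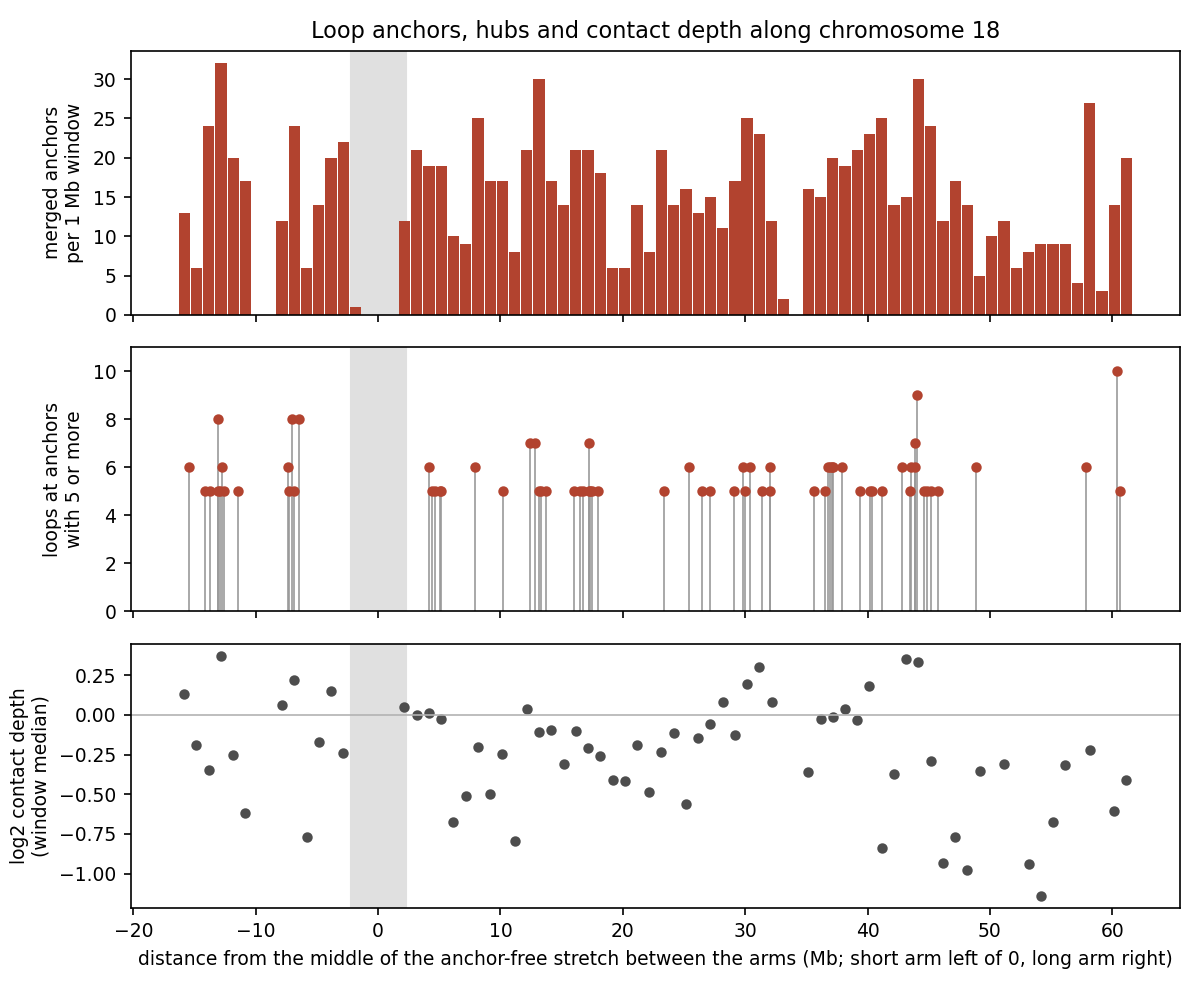
Merged anchors per 1 Mb window (top), loops at each anchor with 5 or more (middle) and median log2 contact depth per window (bottom) along chromosome 18, plotted by distance in Mb from the middle of the 4.50 Mb stretch between the arms (grey). The fullest window, with 32 anchors, is on the short arm. On the long arm, windows at coordinates 65 to 73 Mb hold 4 to 12 anchors, and those at 74 and 77 Mb hold 27 and 20.

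Stretches without anchors were more common on chromosome 18. It had 14 of at least 500 kb, 15.8 Mb or 20.3% of its covered length, against 5 on chromosome 19, 6.62 Mb or 11.3%. Without the longest stretch of each, 13 stretches of 11.3 Mb remained on chromosome 18 and 4 of 3.11 Mb on chromosome 19. After the 2 named above, the longest on chromosome 18 were 49815001 to 51090000 (1.28 Mb), 10610001 to 11550000 (0.940 Mb) and 72980001 to 73880000 (0.900 Mb). Of the 14 stretches, 10 were bridged by at least 1 loop. That from 49815001 to 51090000 was bridged by 2 loops, the shorter of which spanned 2460 kb. Whether reads could be mapped in these stretches was not analysed here.

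Loops of chromosome 18 lay in fewer layers. Of its covered length 85.1% lay under at least 1 loop, against 94.2% on chromosome 19, and 5.45% under 10 or more, against 12.4%. The mean number of loops over a position was 4.02 on chromosome 18 and 5.34 on chromosome 19. The deepest nesting on chromosome 18, 20 loops over 1 position, lay within 46545001 to 46665000, where the maximum of chromosome 19 was 19.

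Most loops of chromosome 18 shared an anchor with another. There were 1114 merged anchors, of which 44.2% held 2 or more loops (interval 41.2 to 47.1%), against 51.1% of 1394 on chromosome 19 (48.4 to 53.7%). In all, 948 loops (88.9%, interval 86.9 to 90.8%) shared an anchor on chromosome 18, and 90.7% did on chromosome 19 (89.1 to 92.1%). Anchors with 5 or more loops, called hubs here, numbered 70 (6.28%, interval 4.93 to 7.87%) on chromosome 18 and 117 (8.39%, 6.99 to 9.97%) on chromosome 19. By this share of anchors chromosome 18 ranked 13 of 23 chromosomes and chromosome 19 ranked 2. By the share of loops sharing an anchor they ranked 18 and 6. The count of chromosome 18 hubs depends on the list and on merging: it was 12 with all 4 q-values at or below 0.01, 34 with 5 kb anchors alone or with identical bins, 0 with 10 kb anchors alone and 126 with anchors up to 10 kb apart merged. Per covered Mb the reported counts came to 0.902 on chromosome 18 and 1.99 on chromosome 19. Hubs with 8 or more loops numbered 5 on chromosome 18 and 22 on chromosome 19. The short arm held 14 hubs and the long arm 56, or 6.64% and 6.20% of their anchors. The section from 10 to 20 Mb, which holds the stretch between the arms, had 0 hubs among its 96 anchors.

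The hub with the most loops lay near the end of the long arm, at 76740001 to 76750000. It held 10 loops, 7 to lower and 3 to higher coordinates. Their observed counts were 11 to 55 contacts and their strengths 3.30 to 11.1. The hub joins adjacent 5 kb bins through 2 loops with 10 kb anchors, and neither bin held all 10 loops. Its 395 kb loop, with 11 contacts, had a q-value of 0.421 against the donut. The nearest partner was 90 kb away and the farthest, at 74530001 to 74540000, 2210 kb away, with 22 contacts in a single pixel. Another loop joined it over 1270 kb to 75470001 to 75480000, with 23 contacts. These long loops bridge the stretch at 75620001 to 76150000, which holds no anchor.

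The next hub, at 60380001 to 60390000, had 9 loops, 4 to lower and 5 to higher coordinates, in the window with 30 anchors. Its strongest contact by count was a 240 kb loop to 60620001 to 60630000, with 166 contacts against 35.2 expected. It was joined over 130 kb to the hub at 60250001 to 60260000 (39 contacts), which had 7 loops, 3 to lower and 4 to higher coordinates. Both hubs were joined to a further hub at 59850001 to 59860000, all of whose 6 loops ran to higher coordinates.

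On the short arm the hub at 3245001 to 3250000 sent all of its 8 loops to lower coordinates. Their spans ran from 70 to 675 kb, and their counts were 161, 121, 44, 52, 96, 22, 19 and 17 contacts in order of span. The loop of 315 kb, with 96 contacts against 8.79 expected, was the strongest of the 8 at a ratio of 10.9, where the others lay between 4.84 and 7.74. The hub at 9910001 to 9920000 likewise held 8 loops that all ran to lower coordinates, 45 to 810 kb away. Another hub, at 9330001 to 9340000, held 8 loops, 5 to lower and 3 to higher coordinates, and a 580 kb loop with 27 contacts joined these 2 hubs.

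The remaining 4 of the 10 leading hubs lay on the long arm. That at 28785001 to 28790000 was compact, with 7 loops of 35 to 290 kb. Those at 33595001 to 33600000 and 29130001 to 29140000 each sent 6 of 7 loops to higher coordinates, up to 740 and 990 kb away. The hub at 46700001 to 46705000 sent all 6 to lower coordinates, at most 400 kb away.

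**Figure D4:**
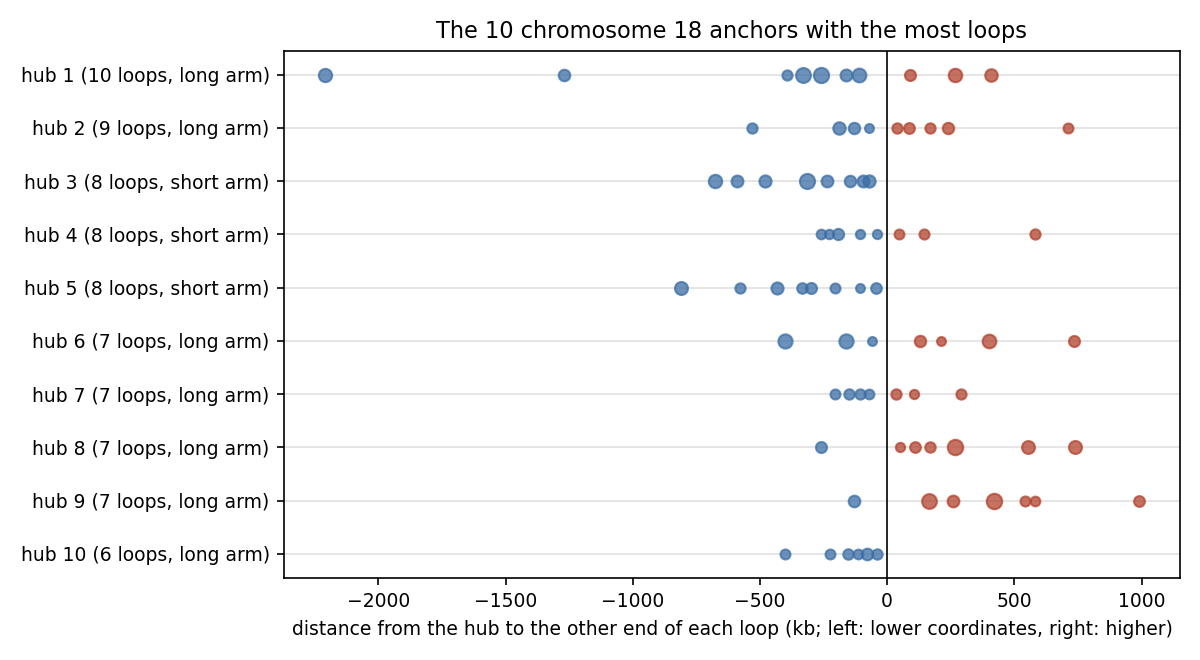
Each row is 1 of the 10 chromosome 18 anchors with the most loops, ordered by loop number and then by summed contacts. Each point is a loop, placed at the signed distance in kb from the hub to its other anchor (blue, lower coordinates; red, higher), and larger points have a higher ratio of observed to expected contacts. Hubs 3, 5 and 10, at 3245001, 9910001 and 46700001, have points on the left side only.

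Such one-sided hubs were common on chromosome 18 and rare on chromosome 19. All loops ran to the same side at 29 of the 70 hubs on chromosome 18 (41.4%, interval 29.8 to 53.8%) and at 14 of the 117 on chromosome 19 (12.0%, interval 6.70 to 19.3%). On all chromosomes but 18 the share was 30.5% of 3119 hubs (28.9 to 32.1%). Chromosome 18 ranked 1 and chromosome 19 ranked 23 of the 23 chromosomes, but the interval of chromosome 18 takes in the share of the others. The share moved with hub size: on all chromosomes but 18 it was 35.0% at 5 loops, 29.8% at 6 and 21.9% at 7 or more, and chromosome 19 had more of the large hubs. At exactly 5 loops the shares were 45.2% of 42 anchors on chromosome 18 (29.8 to 61.3%) and 18.8% of 48 on chromosome 19 (8.95 to 32.6%). At 3 loops they were 55.1% on chromosome 18 (46.0 to 64.0%) and 58.8% on chromosome 19 (51.0 to 66.3%), and at 4 loops 40.3% (28.9 to 52.5%) and 37.4% (27.9 to 47.7%). At 6 loops they were 42.1% of 19 anchors on chromosome 18 (20.3 to 66.5%) and 3.33% of 30 on chromosome 19 (0.0844 to 17.2%). At 7 or more they were 22.2% of 9 on chromosome 18 (2.81 to 60.01%) and 10.3% of 39 on chromosome 19 (2.87 to 24.2%). The intervals of the chromosomes overlapped at 3, 4, 5 and 7 or more loops, and the difference at each size was not tested. This comparison was added after the values had been seen. When anchors up to 10 kb apart were merged too, the shares were 19.05% on chromosome 18 and 5.75% on chromosome 19.

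**Figure D5:**
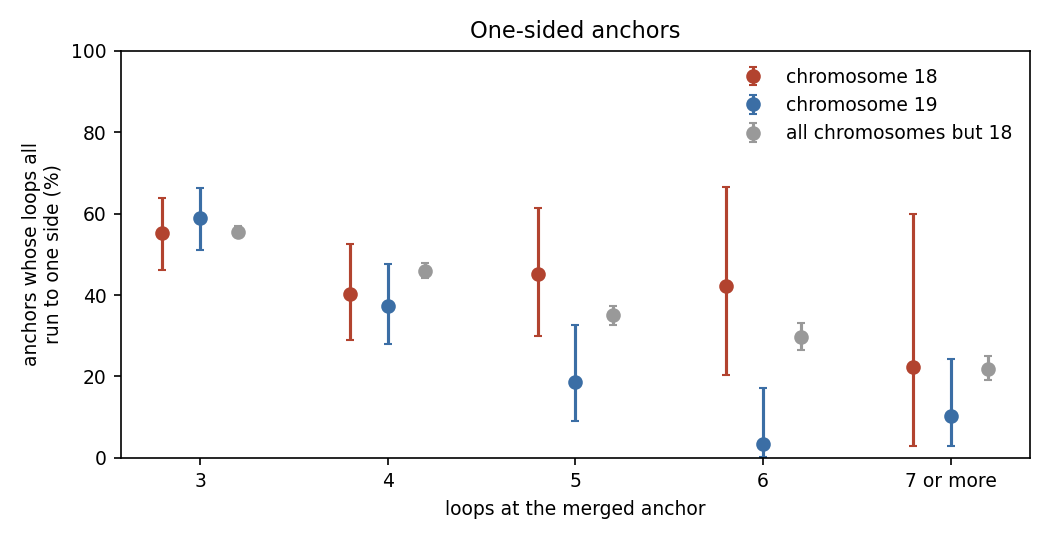
Share of merged anchors whose loops all run to the same side (vertical axis, %) by the number of loops at the anchor (horizontal axis), for chromosome 18 (red), chromosome 19 (blue) and all chromosomes but 18 (grey), with exact 95% intervals. At exactly 5 loops the shares are 45.2% on chromosome 18 and 18.8% on chromosome 19, and at 3 loops 55.1% and 58.8%.

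In 3 places, one-sided hubs of chromosome 18 stood back to back within 100 kb, the first sending its loops down and the second up. At 3245001 to 3250000 (8 loops) and 3280001 to 3285000 (5 loops) the hubs were 30 kb apart, and 5 loops passed over both. At 59795001 to 59800000 (5 loops) and 59850001 to 59860000 (6 loops) they were 50 kb apart, and 0 loops passed over. At 8980001 to 8990000 (6 loops) and 9070001 to 9080000 (5 loops) they were 80 kb apart, and 1 loop passed over. Of one-sided hubs that close, 0 pairs faced each other and 0 pointed the same way. Chromosome 19 had 0 such pairs among its 14 one-sided hubs. With one-sided anchors of 3 or more loops, 16 of 27 neighbouring pairs within 100 kb stood back to back on chromosome 18 and 1 faced, against 24 and 6 of 47 on chromosome 19.

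Loops linked through shared anchors form networks. Chromosome 18 had 198, of which 118 were a single loop, and chromosome 19 had 203, of which 138 were. Networks of 10 or more loops took in 72.0% of the loops of chromosome 18 (28 networks) and 81.1% of those of chromosome 19 (25 networks). The largest on chromosome 18 linked 85 loops and 74 anchors between 55295001 and 59800000. The next linked 65 loops from the first anchor of the chromosome at 260001 to 5060000, over 4800 kb, and the third 61 loops between 45385001 and 47960000. The largest on chromosome 19 had 183 loops. Sets of 3 anchors all joined to each other numbered 120 on chromosome 18, or 11.3 per 100 loops, and 205 on chromosome 19, or 13.8 per 100 loops.

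The strongest loop of chromosome 18 stood far from the rest. It joined 10605001 to 10610000 with 12230001 to 12235000 on the short arm over 1.63 Mb, across a 0.940 Mb stretch without anchors. It had 60 contacts (Poisson interval 45.8 to 77.2) in 4 merged pixels against 0.221 expected, a ratio of 272. Its expectation from the lower-left corner was 0.519, which gives a ratio of 116. With so small an expectation the ratio has little precision. The median expectation of chromosome 18 loops with 5 kb anchors was 2.29 at 1 Mb or more and 7.43 at 100 to 200 kb. The second strongest, 25820001 to 25825000 with 26000001 to 26005000, spanned 180 kb and had 19 contacts in a single pixel against 0.726 expected (ratio 26.2). Whether reads could be mapped around these loops was not analysed here.

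The third and the fourth strongest had higher expectations. A 290 kb loop joined 56445001 to 56450000 with 56735001 to 56740000 by 199 contacts (interval 172 to 229) against 9.94, a ratio of 20.0, over 28 merged pixels. Its neighbour, 56195001 to 56200000 with 56430001 to 56435000, had 163 contacts against 8.89 (ratio 18.3). These 2 strong loops follow each other with 10 kb between the end of the first and the start of the second. On the short arm, the loop from 3280001 to 3285000, the upper hub of the pair 30 kb apart, to 3665001 to 3670000 had 151 contacts against 8.91 (ratio 16.9). The other 5 of the 10 strongest lay on the long arm, with ratios of 16.6 to 18.3. Strengths of 10 or more were reached by 59 loops on chromosome 18 (5.53%), 92 on chromosome 19 (6.20%) and 5.65% of the loops on all chromosomes but 18.

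By count, the highest was a 75 kb loop at 55710001 to 55715000 and 55785001 to 55790000, with 246 contacts (interval 216 to 279) against 21.0 expected over 31 merged pixels. After the 290 kb loop above came a 90 kb loop on the short arm, 740001 to 745000 with 830001 to 835000, with 195 contacts against 22.2. It merged 35 pixels, the most on the chromosome, with a radius of 47.8 kb. The next was a 35 kb loop at 9100001 to 9105000 and 9135001 to 9140000, with 192 contacts against 46.0. The fifth was the 240 kb loop of the hub at 60380001. The second broadest loop, 3280001 to 3285000 with 3450001 to 3455000, merged 34 pixels over a radius of 81.4 kb but had 63 contacts. It started from the same hub as the strong 385 kb loop.

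The 44 loops of 1 Mb or more had 10 to 60 contacts, with a median of 17, and 8 of them rested on a single pixel. The short arm held 7 and the long arm 37, and all 7 loops of 2 Mb or more were on the long arm. Some loops of this length came in groups: with both anchors within 200 kb of another such loop's, 23 of the 44 fell into 7 groups. The other 21 stood alone, and the grouping was not compared with other chromosomes. The largest group had 7 loops and joined 39630001 to 39880000 with 40850001 to 41170000 by 13 to 27 contacts each. Next to it, 3 loops joined 41675001 to 41715000 with 42790001 to 42970000. In all, 11 of the 44 lay between 39 and 43 Mb. A group of 4 loops joined 68150001 to 68450000 with 70210001 to 70350000 over 1.77 to 2.19 Mb, with 14 to 18 contacts each and strengths of 3.81 to 14.8, in the section of low contact depth.

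The longest loop, from 61680001 to 61690000 to 64860001 to 64870000, spanned 3.18 Mb with 13 contacts (interval 6.92 to 22.2) in a single pixel against 1.39 expected. The next, of 3.01 Mb, joined 48630001 to 48640000 with 51640001 to 51650000 by 12 contacts against 2.66 over 2 pixels, and its q-value against the donut was 0.217. The third, of 2.46 Mb, joined 49190001 to 49195000 with 51650001 to 51655000 by 21 contacts against 1.20 (ratio 17.5). Both cross the empty stretch from 49815001 to 51090000 and end at adjacent bins. The fourth is the 2.21 Mb loop of the hub at 76740001, and the fifth, of 2.19 Mb, belongs to the group at 68 to 70 Mb. Of the 5 longest, 2 rested on a single pixel and 3 on 2 pixels.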

How the data were processed

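Micro-C contacts of HAP1 cells were deposited as 1 loop list for 6 replicates. Their sequencing depth, the way of pooling and the set-up of the caller were not given in the sources used here. Per the file headers, the list was made with juicer_tools 1.22.01, and its columns are those of the HiCCUPS loop caller. The submitters' processing notes name BWA and hg19 without a role. The authors deposited whole raw observed counts per loop, 4 expected contact values on the same scale, q-values against each surrounding, the number of merged pixels and the cluster radius (bp). The caller keeps loops past its own limits, so weak loops are missing and ratios have a floor. The list held 0 duplicate loops and 0 between chromosomes.

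With Python 3.11.15, numpy 2.4.6, pandas 2.3.3, scipy 1.17.1, networkx 3.6.1 and matplotlib 3.10.9, span (distance of anchor midpoints), strength (observed over donut), merged anchors and contact depth (log2 donut expectation of a 5 kb loop over the median in 40 span bins) were computed. Matching used anchor width and 15 span bins with at least 5 loops of the other set. Functions were tested on simulated data. Loops named by position were the 10 leading hubs, the 10 strongest loops, the 5 with the highest counts, the longest, the broadest, the longest empty stretches and the fullest windows; further one-sided hubs, groups and networks were named after their values were seen. The chromosome, comparisons and rules were chosen with earlier results of these data known.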

Additional observations from a re-analysis of the deposited data

How the results depend on the processing

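With 1 pooled list, no replicate could be left out, and intervals cover counting error only. No paired analysis was possible because the 6 replicates form 1 group and are not told apart. Of 55 alternative values for 8 results, 32 lay inside the reported 95% interval (counts within 1.5 times) and 23 left it. Of these, 0 changed to the other side of an even value that the reported interval excluded. Only the density ratio of the chromosomes, the share stronger and the contact depth have such a value, so the other results could not change in this sense. The interval of the arm ratio takes in an even density, and its alternatives lay on both sides of it. With 10 kb anchors alone the density of chromosome 18 over 19 was 0.652, the median span 390 kb, the share of loops sharing an anchor 41.4%, the hubs 0 and the short over long arm density 0.838. With 5 kb anchors alone the span was 135 kb, the sharing 85.5% and the hubs 34. With all 4 q-values at or below 0.01 the density ratio was 0.405, the span 180 kb, the share stronger than chromosome 19 37.1%, the hubs 12 and the arm ratio 1.16. Counting merged anchors gave a density ratio of 0.605. The share stronger was 35.0% with the highest of the 4 expectations, 37.9% at like donut expectation in place of like span, and 48.9% against all other chromosomes. With anchors within 10 kb taken as the same, sharing was 97.6%, hubs 126 and one-sided hubs 19.05%. With identical bins only, sharing was 78.5% and hubs 34. Leaving out stretches of 1 Mb or more without an anchor gave an arm ratio of 1.20. That alternative and those for one-sided hubs were chosen after seeing the data; the causes of these shifts were not tested. The loops of 1 Mb or more rest on a median of 17 contacts.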

Other observations

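The lower-left expectation of a loop comes from the pixels toward the inside of the loop, and exceeds the donut expectation where contacts are richer inside. It was the higher of the 2 for 49.3% of chromosome 18 loops (interval 46.3 to 52.4%), 56.9% of chromosome 19 loops (54.3 to 59.4%) and 52.9% of loops on all chromosomes but 18 (52.4 to 53.3%). Under 100 kb the shares were 44.4% on chromosome 18, 57.7% on chromosome 19 and 47.3% on all chromosomes but 18. At 100 to 200 kb they were 53.4%, 57.5% and 59.8%. At 1 Mb or more they were 47.7% of 44 loops on chromosome 18, 43.8% of 16 on chromosome 19 and 54.3% on all chromosomes but 18. So few loops on chromosomes 18 and 19 cannot tell their order.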
